A study of Mus musculus with 48 samples.

Results

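Slc36a1 was examined on its own 2 probes and beside the 10 probes of 6 related amino acid transporter genes, Slc36a4, Slc38a1, Slc38a2, Slc3a2, Slc7a5 and Slc7a11. The members were all probes that carry one of these 7 gene names on the array, out of 34844 gene names. Slc36a1 was chosen by its measured group levels in blood and in the medial prefrontal cortex (mPFC), which moved in opposite directions on its 2 probes. Its group differences are therefore described here without a test, while those of the other 6 genes were tested. The difference between blood and mPFC was not part of this choice. It was tested on all member probes detected in both tissues, those of Slc36a1 included. The animals were female C57BL/6J mice, 17 weeks old at sampling, and each mouse gave RNA of whole blood and of the mPFC. All mice had either sham surgery or removal of both ovaries (OVX), and either no stress or chronic ultra-mild stress (CUMS), a course of varied mild stressors by day and night. The groups were control (sham surgery, non-stress), CUMS (sham surgery, stress), OVX (ovariectomy, non-stress) and OVX+CUMS (both), with 6 mice each. The RNA of each of the 48 samples was hybridised to 1 one-colour Agilent mouse array. All mice were anaesthetised with pentobarbital before sampling, ovary removal takes away more hormones than estrogen, and blood and tissue are mixtures of cells.

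Amino acid transporters are carriers of the SLC families in cell and organelle membranes. Slc36a1 (PAT1, also called LYAAT1) moves small neutral amino acids such as glycine, alanine and proline together with protons, at the cell surface and out of lysosomes, where it has been linked to the mTORC1 kinase that senses amino acids. Slc36a4 (PAT4) is a relative with a high affinity for proline and tryptophan. Slc38a1 (SNAT1) and Slc38a2 (SNAT2) take up glutamine and other small neutral amino acids with sodium, and in brain they feed neurons with glutamine. Slc3a2 (4F2hc, CD98) is the heavy chain that brings several light chains to the membrane, among them Slc7a5 (LAT1), the carrier of leucine, tryptophan and other large neutral amino acids, and Slc7a11 (xCT), which exchanges cystine for glutamate.

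The 2 Slc36a1 probes read 1 transcript and gave different patterns. Both are 60 bases long and are assigned by the array to RefSeq transcript NM_153139, on the plus strand of chromosome 11. The upstream probe starts at base 1544 of the transcript, at mm9 chr11:55046103-55046162, and the downstream probe lies 3′ of it. The starts are equally far apart in the transcript and in the genome, so no intron lies between them. The first 30 bases of the upstream probe, shown because its levels set OVX+CUMS apart from control mice in both tissues, are, 5′ to 3′ along the transcript:
Slc36a1 upstream probe: gcgactcctctaccaattccaccagtgcct
Whether the probes lie in coding or untranslated sequence was not analysed here. The Slc7a5 probes are shown because their OVX effects in blood fell on different sides of the threshold. They start at bases 533 and 3363 of NM_011404 on the minus strand of chromosome 8 (mm9 chr8:124430996-124431055 and chr8:124405136-124405195), and their first 30 bases are:
Slc7a5 upstream probe: tagtcttcgccacctacttgctcaagccgg
Slc7a5 downstream probe: gtggttataatgtcttttactattgtatta

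Levels are given as log2 of the processed signal minus the 75th percentile of the same array, so that 0 is the brightness of the probe at that percentile. A probe was called detected in a tissue if its signal was positive, significant and well above background on all 24 arrays and above 50 on at least 2. All 12 member probes were detected in mPFC and 8 of 12 in blood. The 75th percentile of the raw signal was 54.9 to 192 on blood arrays and 572 to 689 on mPFC arrays, so weak probes were closer to background in blood. In both tissues the 24 arrays were spread over 3 slides of 8. The 6 control arrays lay with 2 CUMS arrays on slide 1, the other 4 CUMS with 4 OVX arrays on slide 2, and the other 2 OVX with all 6 OVX+CUMS arrays on slide 3, so that control and OVX+CUMS mice shared no slide. Their difference cannot be told apart from the difference between slides, except through the CUMS and OVX mice that link them. Blood arrays carried the erythroid transcripts Hba-a1, Alas2 and Slc4a1, and mPFC arrays the neuronal transcripts Snap25, Syt1 and Slc17a7, well above background on 24 of 24 arrays. The 3 erythroid transcripts also passed on 24 mPFC arrays, with mean signals of 12680, 226.6 and 46.16 against 570700, 372100 and 35840 in blood. In blood, Snap25 passed on 24 arrays, Syt1 on 16 and Slc17a7 on 1. Their mean signals there were 16570, 17.08 and 4.291, against 55980, 130400 and 5967 in mPFC. The blood array of OVX+CUMS replicate 5 stood apart, with a summed neutrophil marker level of 3673 against 334.8 to 986.5 on the other 23 blood arrays.

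On the downstream Slc36a1 probe, blood levels were lower in both ovariectomized groups than in control mice. They ran from 2.83 to 3.33 (median 3.04) in control, from 2.54 to 3.83 (median 2.99) in CUMS, from 2.15 to 2.42 (median 2.32) in OVX and from 2.50 to 2.92 (median 2.71) in OVX+CUMS blood. All 6 OVX arrays and 5 of 6 OVX+CUMS arrays lay below the lowest control array, and the OVX arrays lay below the lowest OVX+CUMS array, while the CUMS arrays spanned the whole control range. Group means were 3.06 ± 0.18 (SD, n = 6) in control, 3.06 ± 0.42 in CUMS, 2.30 ± 0.12 in OVX and 2.71 ± 0.14 in OVX+CUMS mice. OVX+CUMS minus control was -0.35 (standard error 0.14).

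On the upstream probe the order in blood was different. Levels ran from -1.81 to -0.76 (median -1.22) in control, from -1.46 to -0.44 (median -1.16) in CUMS, from -1.32 to -0.28 (median -0.94) in OVX and from -0.55 to 0.23 (median -0.00) in OVX+CUMS blood. OVX+CUMS arrays were the highest as a group, and all 6 exceeded the highest control array, while control, CUMS and OVX arrays overlapped. The means were -1.21 ± 0.36, -1.08 ± 0.34, -0.87 ± 0.43 and -0.12 ± 0.33 (SD, n = 6), which puts OVX+CUMS 1.10 (standard error 0.20) above control, a 2.14-fold difference. The raw signal of this probe in blood was low, between 24.3 and 157, and well above background on 24 of 24 arrays.

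In mPFC the downstream probe again was lower after ovariectomy. Its levels ran from -1.30 to -1.10 (median -1.24) in control, from -1.47 to -1.09 (median -1.34) in CUMS, from -1.63 to -1.44 (median -1.58) in OVX and from -1.73 to -1.22 (median -1.55) in OVX+CUMS mPFC. All 6 OVX arrays and 5 of 6 OVX+CUMS arrays lay below the lowest control array. The means were -1.21 ± 0.09, -1.30 ± 0.15, -1.55 ± 0.08 and -1.53 ± 0.17 (SD, n = 6), and OVX+CUMS minus control was -0.32 (standard error 0.07).

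The upstream probe in mPFC was lowest in CUMS and highest in OVX+CUMS mice. Its levels ran from -2.69 to -2.40 (median -2.62) in control, from -3.41 to -2.52 (median -3.23) in CUMS, from -3.26 to -1.65 (median -2.83) in OVX and from -2.13 to -1.68 (median -1.90) in OVX+CUMS mPFC. All 6 OVX+CUMS arrays were above every control and CUMS array, but the OVX arrays covered both ends of the range. OVX+CUMS exceeded control by 0.70 (standard error 0.21), or 1.63-fold. CUMS minus control was -0.48 among sham mice and OVX+CUMS minus OVX was 0.71 among ovariectomized mice.

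**Figure D1:**
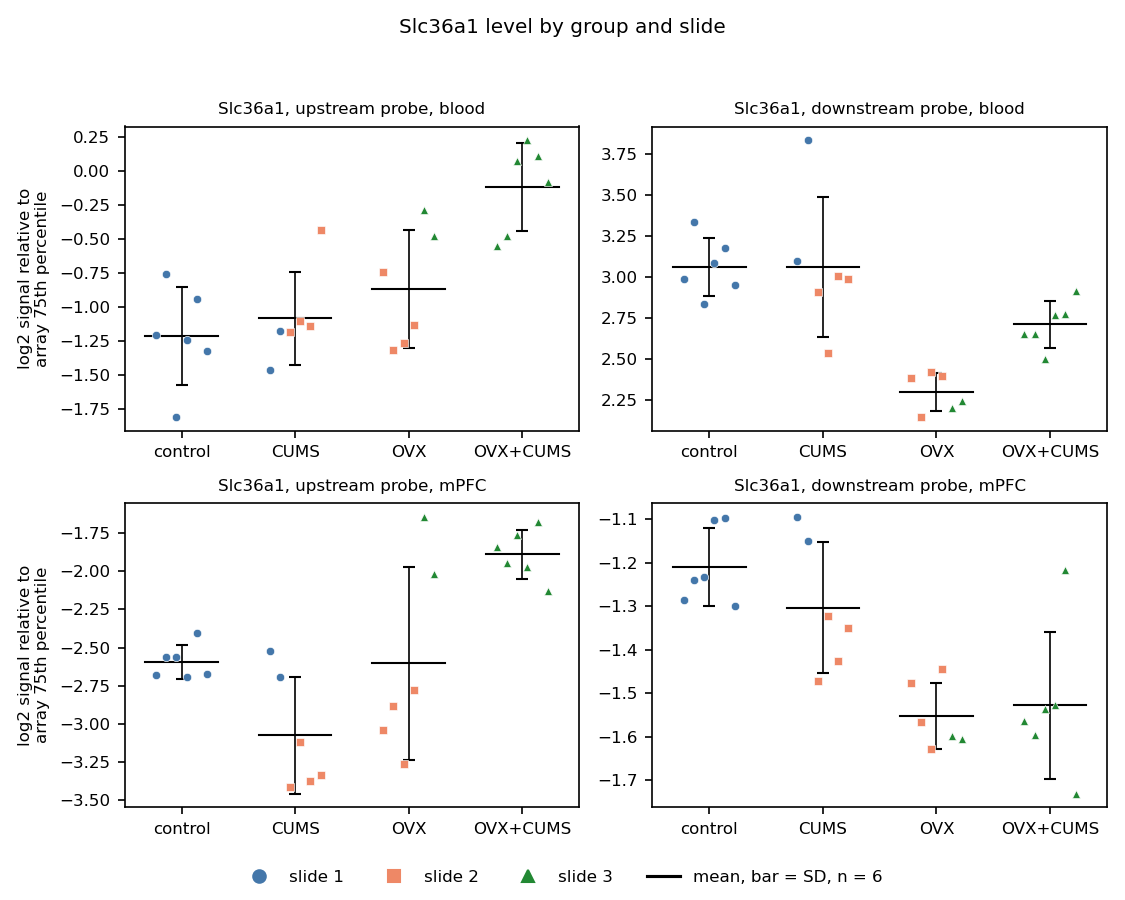
Level of the 2 Slc36a1 probes (log2 signal minus the array's 75th percentile) on each array of blood (top) and mPFC (bottom), by group, with marker shape and colour for the slide, a line for the group mean and a bar for the SD (n = 6). The vertical axes differ between panels. The 2 OVX arrays on slide 3 lie with the OVX+CUMS arrays on the upstream probe in mPFC, 1.16 above the 4 OVX arrays on slide 2.

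Arrays of the same group on different slides differed on both probes. In mPFC the upstream probe averaged -2.61 on slide 1 and -3.31 on slide 2 among CUMS mice, and -2.99 on slide 2 and -1.83 on slide 3 among OVX mice. The latter difference of 1.16 was reached or exceeded, in either direction, by 0.264% of the 28357 probes detected in mPFC. In blood the same probe averaged -1.11 on slide 2 and -0.38 on slide 3 among OVX mice, a difference of 0.73 reached or exceeded by 8.31% of 20767 detected probes. The downstream probe differed between the slides of CUMS mice by -0.60 in blood and -0.27 in mPFC (14% and 28.2% of probes as far or farther), and between those of OVX mice by -0.12 and -0.07.

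Within a slide the differences on the upstream probe were smaller. In mPFC, CUMS minus control was -0.01 on slide 1, CUMS minus OVX was -0.32 on slide 2 and OVX+CUMS minus OVX was -0.06 on slide 3, and the groups overlapped on every slide. In blood the same 3 differences were -0.11, 0.15 and 0.26, and the groups overlapped on every slide. On the downstream probe in blood they were 0.40, 0.52 and 0.49, so on this scale the stressed mice of each slide averaged higher than the unstressed ones. The 75th percentile of blood arrays had medians of 110 in control, 90.1 in CUMS, 139 in OVX and 125 in OVX+CUMS mice. Raw signals of this probe in stressed and unstressed mice overlapped on each slide. They were 880 and 782 against 818 to 1051 on slide 1. On slide 2 they were 595 to 757 against 593 to 691, and on slide 3 760 to 882 against 882 and 776. The slide 2 difference also holds the effect of OVX, and on slide 1 the 2 CUMS arrays overlapped the control arrays. Over all slides, CUMS minus control was -0.0014 among sham mice and OVX+CUMS minus OVX was 0.41 among ovariectomized mice. In mPFC the 3 differences within slides were 0.09, 0.14 and 0.07 on this probe. With slide as a block in the fit, OVX+CUMS minus control became 0.37 (standard error 0.28) on the downstream probe and 0.01 (0.41) on the upstream probe in blood, and 0.03 (0.15) and 0.25 (0.21) in mPFC, so that the opposite directions of both probes were not retained in either tissue. With background correction by normexp, the upstream difference in blood was 0.62.

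Over the 24 arrays of a tissue the 2 Slc36a1 probes were weakly related to each other, with Pearson's r of -0.22 (Spearman's rho -0.25) in blood and -0.19 (-0.13) in mPFC. The probes of other genes most like the downstream probe in blood were those of Olfr1115 (r = 0.97), Rhox3f (r = 0.97) and Slc6a20a (r = 0.97), the last a proline transporter of the SLC6 family, and 11% of all detected probes had r above 0.8 with it. Most like the upstream probe in blood were Ybey (r = 0.91), Mon2 (r = 0.86) and Arhgap11a (r = 0.85). In mPFC they included Angptl8 and Syngr4 (r = 0.89 and 0.87) for the downstream probe, and were Arl9, Pkd1l3 and Terc (r = 0.92, 0.90 and 0.88) for the upstream probe. These points share groups and slides, so the values only describe likeness over these arrays, and no gene was named for both probes.

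Between the tissues, Slc36a1 was higher in blood on both probes on this scale. Within mice, blood exceeded mPFC by 4.18 (standard error 0.05) on the downstream probe, an 18.2-fold difference with a limma adjusted p of 3.378e-30, and by 1.72 (standard error 0.08, 3.29-fold, adjusted p = 9.505e-17) on the upstream probe. The 24 blood levels were all above the 24 mPFC levels on the downstream probe, while on the upstream probe the lowest blood level (-1.81) was below the highest mPFC level (-1.65). The upstream probe's direction depended on the scale: after a shift by the spike-in probes, which moved the median over all probes from 0.43 to -1.48, it was -0.20 (adjusted p = 0.03646), while the downstream probe was still higher in blood, by 2.27. All 8 probes detected in both tissues differed between them, 4 higher and 4 lower in blood, and so did 96.3% of 17544 probes (54.6% higher, 41.7% lower).

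Slc7a5, the light chain, was also higher in blood than in mPFC, by 2.08 (standard error 0.10) on the upstream and 2.22 (0.08) on the downstream probe, which shrank to 0.17 (adjusted p = 0.1054) and 0.30 with the spike-in shift. Slc38a1 was lower in blood, by -1.34 (0.05) on the probe at base 2748 and by -2.45 (0.06) on the probe at base 6788, as were Slc38a2 (-0.61, standard error 0.06) and Slc3a2 (-0.56, 0.07), and these 4 probes stayed lower with the spike-in shift. Slc7a11, the cystine exchanger, was well above background on none of 24 blood arrays and on 24 of 24 mPFC arrays. Its mean level was -1.08 in mPFC. Its blood signal is background, so no fold difference between the tissues is given. Slc36a4 was well above background on 4 and 1 of 24 blood arrays on its 2 probes, against 24 of 24 mPFC arrays. The third Slc38a1 probe (base 4354) was well above background on all blood arrays, with a mean signal of 31.2, below the minimum. Its mean level was -1.91 in blood and -1.96 in mPFC, so this probe did not read lower in blood.

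In blood, the large neutral amino acid carrier rose with CUMS while the system A carrier Slc38a1 fell on its detected probes. Averaged over sham and OVX mice, CUMS raised both Slc7a5 probes and Slc3a2 and lowered both detected Slc38a1 probes. These are 5 of 6 member probes tested, beside 48.5% of all 20767 probes (19.1% higher, 29.4% lower). Since many probes passed the threshold in blood, the share of members called is read against that background.

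Slc7a5 on the downstream probe ran from 2.02 to 3.30 (median 2.39) in control, from 2.89 to 3.39 (median 3.09) in CUMS, from 1.77 to 2.84 (median 2.29) in OVX and from 2.53 to 3.78 (median 2.81) in OVX+CUMS blood. Stressed mice were higher as a group with and without ovaries, although the ranges overlapped in both cases. The CUMS effect was 0.66 (standard error 0.17, 1.57-fold, limma adjusted p = 0.004189). On the upstream probe, levels ran from 3.58 to 4.24 (median 3.94) in control, from 3.71 to 4.80 (median 4.13) in CUMS, from 2.38 to 3.72 (median 3.26) in OVX and from 3.73 to 4.40 (median 4.08) in OVX+CUMS blood. Here all 6 OVX+CUMS arrays were above all 6 OVX arrays, while control and CUMS overlapped. The CUMS effect was 0.59 (standard error 0.15, adjusted p = 0.00441), and it was 0.29 (adjusted p = 0.1808) with the spike-in shift.

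Slc3a2, the heavy chain partner, ran from 3.71 to 4.89 (median 3.91) in control, from 4.31 to 4.82 (median 4.58) in CUMS, from 3.70 to 4.35 (median 3.89) in OVX and from 3.77 to 4.98 (median 4.05) in OVX+CUMS blood. The highest level was that of OVX+CUMS replicate 5, the array with the high neutrophil markers, and the groups overlapped. The CUMS effect was 0.38 (standard error 0.14, limma adjusted p = 0.02613), and it was 0.08 (adjusted p = 0.6361) with the spike-in shift and 0.24 (adjusted p = 0.09525) with normexp. Without the detection filter its adjusted p was 0.06762. The spike-in shift moved the median CUMS effect of all blood probes from -0.03 to -0.33 and the median OVX effect from 0.04 to 0.39.

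Slc38a1 on the probe at base 2748 ran from 3.30 to 3.84 (median 3.66) in control, from 2.54 to 3.54 (median 3.104) in CUMS, from 3.72 to 4.21 (median 3.94) in OVX and from 3.32 to 3.87 (median 3.64) in OVX+CUMS blood. CUMS arrays were lowest and OVX arrays highest, and these groups did not overlap, with OVX+CUMS arrays at the control level. CUMS lowered it by -0.43 (standard error 0.11, limma adjusted p = 0.003949) and OVX raised it by 0.40 (0.11, adjusted p = 0.003883). On the probe at base 6788 the CUMS effect was -0.47 (0.12, adjusted p = 0.0041) and the OVX effect 0.47 (0.12, adjusted p = 0.00258). The 2 detected probes, 4040 bases apart in the transcript, thus moved alike. The third probe (base 4354) lies between them and was below the minimum signal in blood, so it was not tested there. Its means were -1.92 in control, -1.84 in CUMS, -1.84 in OVX and -2.02 in OVX+CUMS blood (SD 0.21 to 0.32). This probe did not show the pattern of the other 2.

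Slc38a2, the other system A carrier, ran from 1.72 to 1.99 (median 1.83) in control, from 0.99 to 2.17 (median 1.87) in CUMS, from 2.12 to 2.46 (median 2.37) in OVX and from 1.79 to 2.17 (median 1.92) in OVX+CUMS blood. All 6 OVX arrays were above all control arrays. The OVX effect was 0.32 (standard error 0.10, limma adjusted p = 0.01023), and the CUMS effect of -0.23 (0.10) had an adjusted p of 0.0548, which fell below the threshold when any of 5 arrays was left out.

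**Figure D2:**
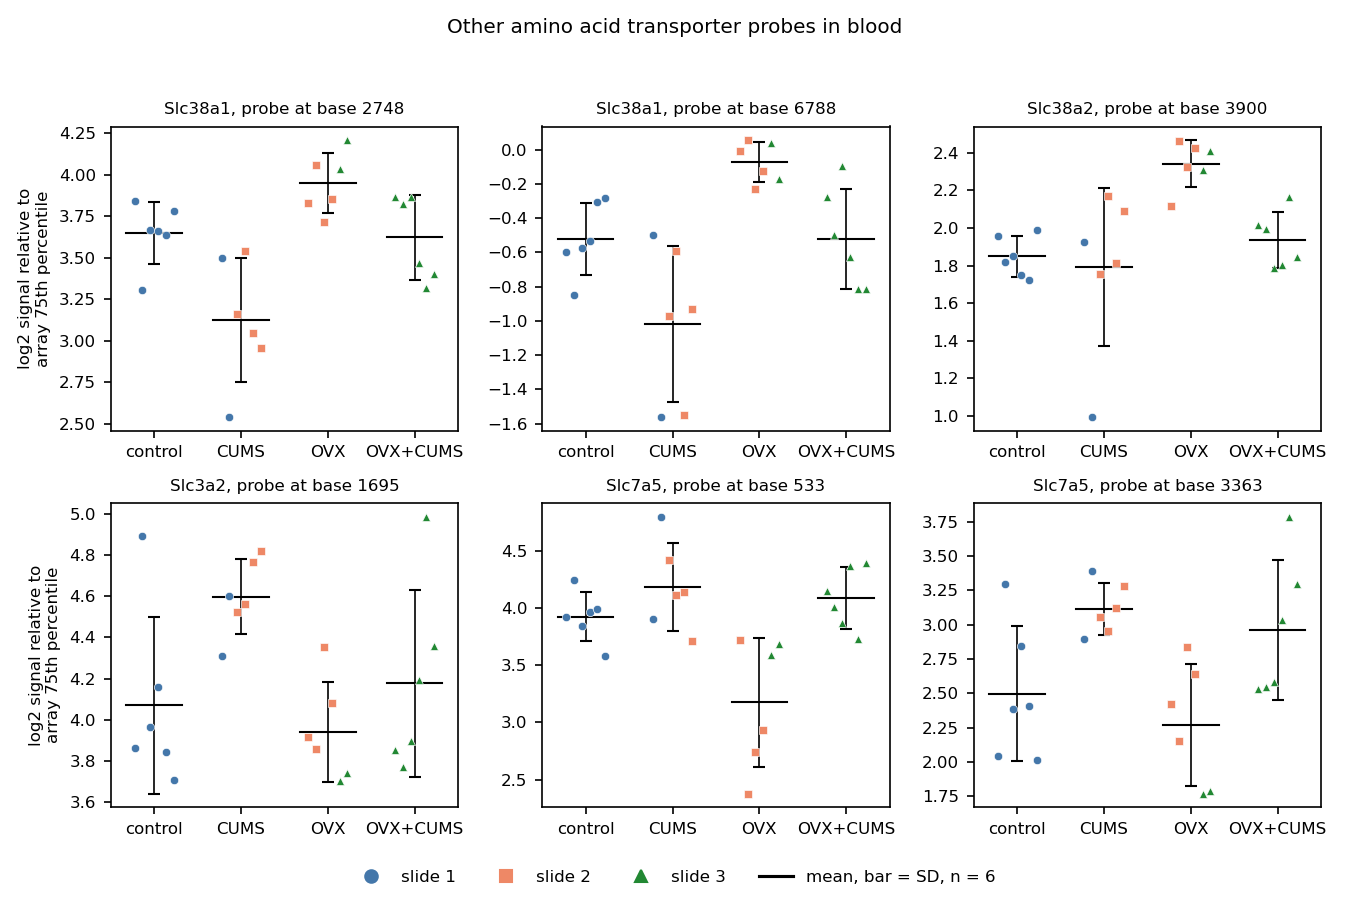
Level of the 6 detected blood probes of Slc38a1, Slc38a2, Slc3a2 and Slc7a5 (log2 signal minus the array's 75th percentile) on each array, by group, with marker shape and colour for the slide, a line for the mean and a bar for the SD (n = 6). Slc38a1 is lowest in CUMS and highest in OVX mice on both probes, and the downstream Slc7a5 probe (base 3363) is higher in both stressed groups than in their unstressed counterparts.

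Within each slide the CUMS differences in blood had the same sign as the pooled effect. On slide 1 (CUMS minus control), slide 2 (CUMS minus OVX) and slide 3 (OVX+CUMS minus OVX), the downstream Slc7a5 probe differed by 0.64, 0.59 and 1.18, Slc3a2 by 0.39, 0.62 and 0.45, and the Slc38a1 probe at base 2748 by -0.63, -0.69 and -0.50. The slide 2 difference also holds the effect of OVX. With slide as a block, the CUMS effect was called for the downstream Slc7a5 probe (0.91, adjusted p = 0.009326), both Slc38a1 probes (-0.56 and -0.48, adjusted p = 0.01045 and 0.02877) and Slc38a2 (-0.41, adjusted p = 0.01576). It was 0.42 (adjusted p = 0.07126) for Slc3a2 and 0.44 (adjusted p = 0.06094) for the upstream Slc7a5 probe.

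OVX in blood raised Slc38a1 on both detected probes and Slc38a2, and lowered Slc7a5 on the upstream probe by -0.42 (standard error 0.15, limma adjusted p = 0.02104). These are 4 of 6 member probes, beside 55.1% of all probes (27.4% higher, 27.7% lower). The upstream Slc7a5 call was lost with normexp (-0.18, adjusted p = 0.2816) and with the spike-in shift (-0.07, adjusted p = 0.7278). The downstream Slc7a5 probe gave -0.19 (0.17, adjusted p = 0.3244) and Slc3a2 -0.27 (0.14, adjusted p = 0.08838). With slide as a block, limma called no member probe and no probe at all for OVX in blood, and 1 of the 6 had an unadjusted p under 0.05. The fitted OVX effects were then 0.12 and 0.45 for Slc38a1, -0.03 for Slc38a2 and -0.72 for the upstream Slc7a5 probe, all with adjusted p of 0.7351 or more.

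Neither the interaction of OVX and CUMS (1.42% of all blood probes called, 1.29% higher and 0.130% lower) nor OVX+CUMS minus control (6.26%, with 4.08% higher and 2.18% lower) was called for any of the 6 member probes in blood by limma. At an unadjusted p under 0.05 there was 1 interaction, that of the upstream Slc7a5 probe (0.65, standard error 0.30, adjusted p = 0.2558), and no difference between OVX+CUMS and control. The largest of the latter, 0.46 (standard error 0.23) on the downstream Slc7a5 probe, had an adjusted p of 0.2576 and an exact two-sided permutation p of 0.1494.

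Markers of several blood cell types were called for the same factors, to be read against 19.1% of all blood probes higher and 29.4% lower with CUMS, and 27.4% higher and 27.7% lower with OVX. Of 11 erythroid and reticulocyte probes tested, 6 were higher and 0 lower with CUMS, and 0 higher and 7 lower with OVX. Their summed level, in units of the array's 75th percentile, was 14200 to 23650 in control, 17460 to 33570 in CUMS, 9647 to 15420 in OVX and 12370 to 16750 in OVX+CUMS blood, and Klf1 was well above background on 12 of 24 arrays. Of 7 B cell probes, 5 were lower with CUMS and 4 higher with OVX, with sums of 202.6 to 293.5, 136 to 233.3, 313.9 to 383 and 133 to 319 in the same order. Of 10 T cell probes, 5 were lower with CUMS and 3 lower with OVX, with sums of 112.7 to 128.6, 96.3 to 140.5, 86.8 to 96.3 and 65.9 to 101.2. NK cell probes gave 4 of 7 lower with CUMS and 2 lower with OVX, platelet probes 0 of 7 called with CUMS and 2 lower with OVX, neutrophil probes 2 of 11 higher with CUMS and 1 lower with OVX, and monocyte probes 0 of 7 called with CUMS and 1 higher with OVX. At an unadjusted p under 0.05, limma gave 0 platelet and 1 monocyte probe for CUMS. The part of these shifts in the transporter differences was not tested, and in whole blood fewer cells of a type and less RNA per cell cannot be told apart.

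In mPFC, Slc3a2, Slc38a2 and Slc36a4 were higher in OVX+CUMS than in control mice. These are 3 of the 10 member probes tested, all higher, beside 33.4% of 28357 probes called (20.4% higher, the other 3693 probes lower). The differences were at most 1.22-fold. With the spike-in shift, which moved the median over all mPFC probes from 0.06 to -0.20, none of the 3 was called (Slc3a2 0.03, Slc38a2 0.02 and Slc36a4 -0.09, adjusted p = 0.7413, 0.8733 and 0.3972 by limma). The 4 probes then called were all lower, those of Slc38a1 at bases 2748 and 6788 (-0.28 and -0.27), the Slc36a4 probe at base 1844 (-0.37) and the downstream Slc7a5 probe (-0.25).

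Slc3a2 ran from 4.39 to 4.61 (median 4.54) in control, from 4.65 to 4.91 (median 4.83) in CUMS, from 4.81 to 4.98 (median 4.83) in OVX and from 4.69 to 4.89 (median 4.86) in OVX+CUMS mPFC. Every array of the other 3 groups was above the highest control array. OVX+CUMS minus control was 0.29 (standard error 0.05, limma adjusted p = 0.0002251, exact two-sided permutation p = 0.002165, the smallest that 6 against 6 can give). The OVX effect was 0.17 (0.04, adjusted p = 0.001139), the CUMS effect 0.12 (0.04, adjusted p = 0.06548) and the interaction -0.31 (0.07, adjusted p = 0.03376). Slc3a2 was the only member probe called for the interaction in mPFC by limma, 1 of 10 beside 4.49% of all probes (3.37% higher, 1.12% lower), and the call was lost without any of 13 of the 24 arrays.

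The 6 control arrays, however, were all on slide 1, and the 2 CUMS arrays on that slide had the lowest Slc3a2 levels of their group. CUMS minus control was 0.15 within slide 1, without overlap, CUMS minus OVX was -0.02 within slide 2 and OVX+CUMS minus OVX was -0.00 within slide 3. With slide as a block, OVX+CUMS minus control was 0.16 (standard error 0.11, adjusted p = 0.9238), and limma called no probe for any of the 4 comparisons in mPFC. Among the 10 member probes, 2 had an unadjusted p under 0.05 for OVX and 0 for each of the other 3.

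Slc38a2 ran from 2.09 to 2.61 (median 2.47) in control, from 2.48 to 2.80 (median 2.68) in CUMS, from 2.37 to 2.74 (median 2.64) in OVX and from 2.54 to 2.85 (median 2.70) in OVX+CUMS mPFC. The groups overlapped, with 4 of 6 OVX+CUMS arrays above the highest control array. OVX+CUMS minus control was 0.28 (standard error 0.08, limma adjusted p = 0.01263, exact two-sided permutation p = 0.006494), 0.22 (adjusted p = 0.9633) with slide as a block and 0.165 (adjusted p = 0.1112) with normexp.

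Slc36a4, the relative of Slc36a1, gave different results on its 2 probes, which start 348 bases apart. The probe at base 1496 ran from 0.38 to 0.55 (median 0.49) in control, from 0.37 to 0.62 (median 0.59) in CUMS, from 0.51 to 0.75 (median 0.60) in OVX and from 0.53 to 0.73 (median 0.65) in OVX+CUMS mPFC. Of the OVX+CUMS arrays, 5 of 6 were above the highest control array. Its OVX effect was 0.12 (standard error 0.04, limma adjusted p = 0.01425) and OVX+CUMS minus control was 0.17 (0.05, adjusted p = 0.01666), but the latter had an adjusted p of 0.05955 with the percentile taken over detected probes, and both turned negative with slide as a block (-0.08 and -0.14) and with the spike-in shift (-0.01 and -0.09). The probe at base 1844 gave -0.11 (0.06, adjusted p = 0.1849) for OVX and -0.11 (0.09, adjusted p = 0.3428) for OVX+CUMS minus control.

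**Figure D3:**
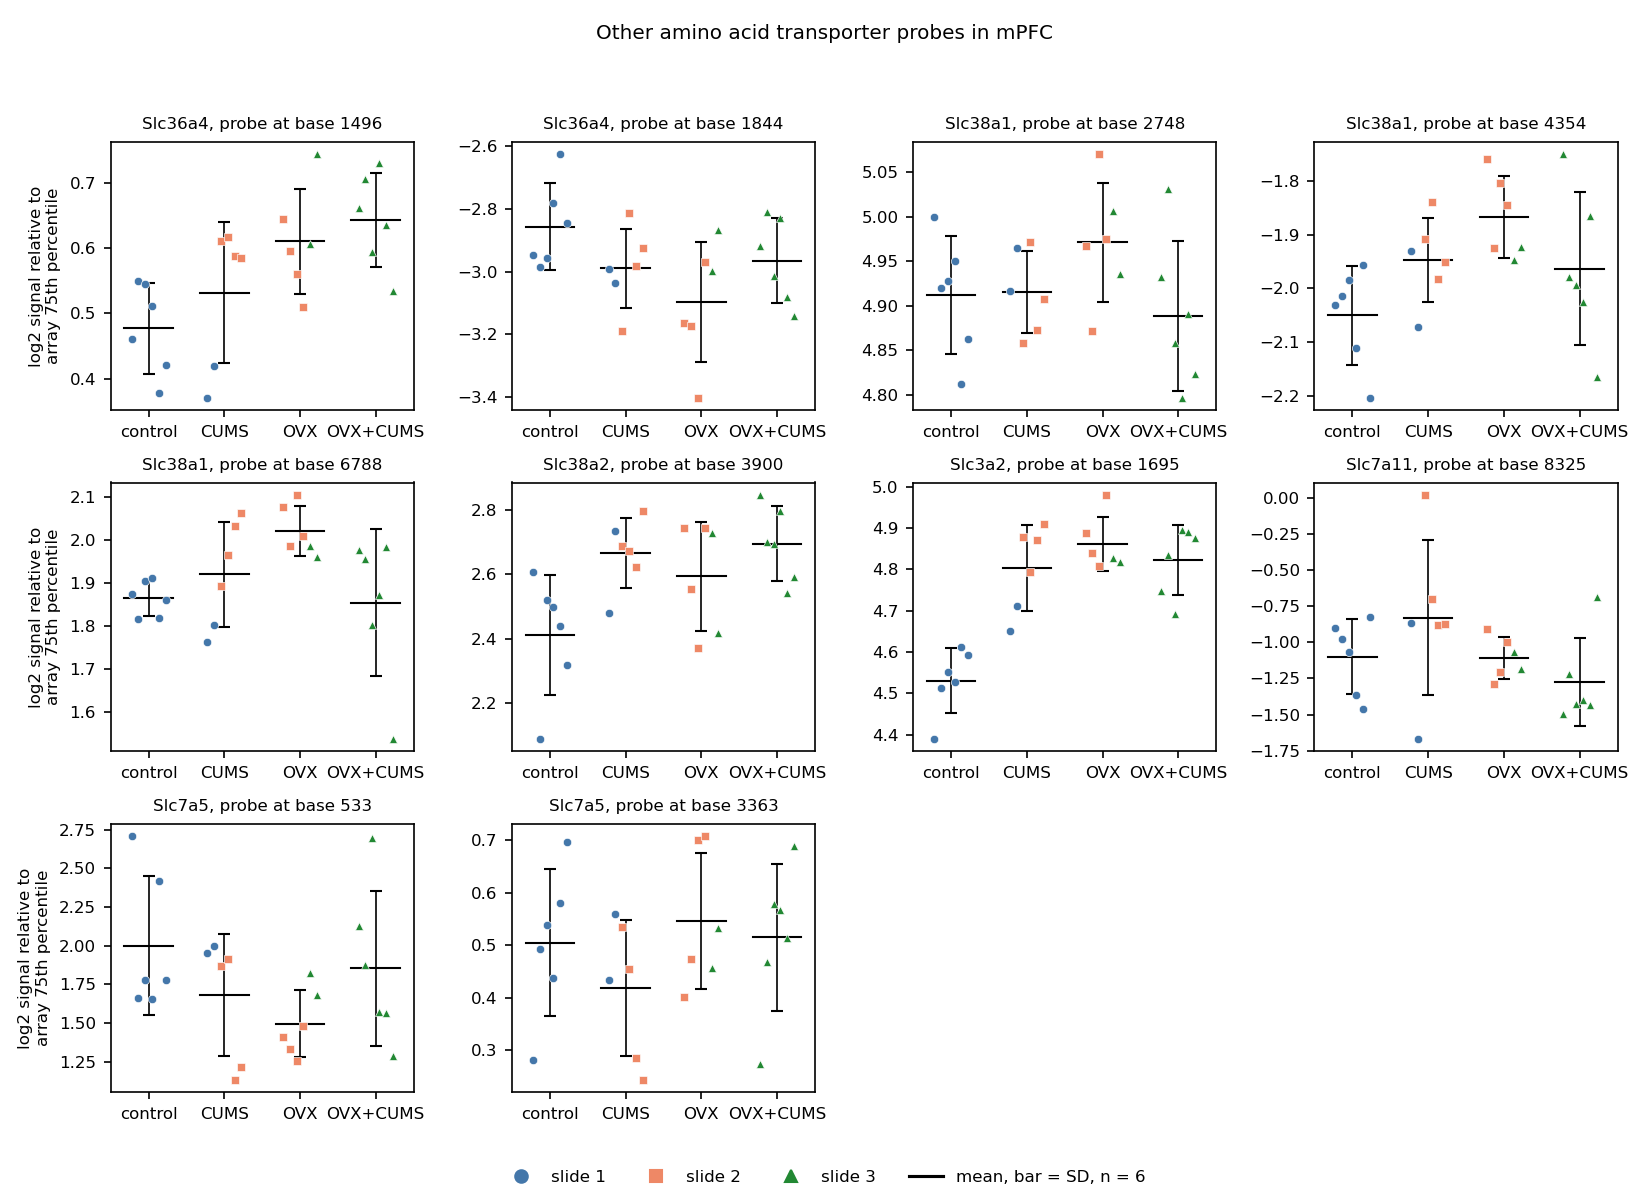
Level of the 10 mPFC probes of the 6 genes other than Slc36a1 (log2 signal minus the array's 75th percentile) on each array, by group, with marker shape and colour for the slide, a line for the mean and a bar for the SD (n = 6). The 6 control arrays have the lowest Slc3a2 levels, and the CUMS arrays on slide 1 lie below those on slide 2 for Slc3a2 and for the Slc36a4 probe at base 1496.

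The remaining mPFC probes did not pass the threshold in any of the 4 comparisons on the main scale. For OVX+CUMS minus control, the 3 Slc38a1 probes differed by -0.02 (standard error 0.04), 0.09 (0.06) and -0.01 (0.07) at bases 2748, 4354 and 6788. Slc7a5 differed by -0.15 (0.22) on the upstream and 0.01 (0.08) on the downstream probe, and Slc7a11 by -0.18 (0.19). The CUMS effect in mPFC was called for 0 of 10 member probes by limma, beside 4.19% of all probes (2.33% higher, 1.86% lower), and 2 probes, Slc38a2 (0.18, standard error 0.06, adjusted p = 0.08064) and Slc3a2, had an unadjusted p under 0.05. Slc7a11 spread widely within CUMS mice, from -1.67 to 0.02 (median -0.87). For OVX, 2 of 10 member probes were called, Slc3a2 and Slc36a4, beside 30.9% of all probes (19.1% higher, 11.7% lower). With the spike-in shift neither was called (0.04 for Slc3a2, adjusted p = 0.6309 by limma), while Slc7a11 (-0.36, adjusted p = 0.04667) and the Slc36a4 probe at base 1844 (-0.24, adjusted p = 0.02508) were.

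Microglial markers were higher in mPFC after OVX, on 7 of 9 probes, with 1 of 9 lower, beside 19.1% of all mPFC probes higher and 11.7% lower. Their summed level was 60.7 to 66.6 in control, 60.1 to 77.1 in CUMS, 67.9 to 78.3 in OVX and 66.2 to 80.3 in OVX+CUMS mice. Within CUMS mice the sums also differed by slide, with 62.4 and 60.1 on slide 1 and 67.2 to 77.1 on slide 2. With slide as a block, limma called no mPFC probe for OVX. The microglial list holds 3 probes of Csf1r and 2 of Cx3cr1, genes that are on the monocyte list too. Of 8 monocyte marker probes in mPFC, 5 were higher and 1 lower after OVX. Of 10 neuron marker probes, 2 were higher and 1 lower after OVX. All genes of the microglial and neuron lists were well above background on 24 of 24 mPFC arrays, and their part in the transporter differences was not tested.

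The effect of CUMS on several carriers differed between blood and mPFC of mice paired by group and number. This difference was tested after the values of each tissue had been seen, on the 6 probes other than Slc36a1 that were detected in both tissues, and 5 of 6 were called, beside 50.4% of 17544 probes (18.6% higher, 31.8% lower in blood). The CUMS effect in blood exceeded that in mPFC by 0.71 (standard error 0.16, limma adjusted p = 0.002098) on the downstream and 0.57 (0.19, adjusted p = 0.02036) on the upstream Slc7a5 probe. It was below that in mPFC by -0.39 (0.11, adjusted p = 0.007301) and -0.42 (0.13, adjusted p = 0.01055) on the Slc38a1 probes and by -0.41 (0.12, adjusted p = 0.008825) for Slc38a2. For Slc3a2 the difference was 0.26 (0.13, adjusted p = 0.09443). The upstream Slc7a5 call was lost with the spike-in shift (0.39, adjusted p = 0.1169) and without the detection filter (adjusted p = 0.07053), and that of the Slc38a1 probe at base 6788 with normexp (-0.09, adjusted p = 0.2861).

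The OVX effect differed between tissues on 3 of 6 probes, beside 37.2% of all probes (18.1% higher, 19.1% lower), and was higher in blood for both Slc38a1 probes (0.38 and 0.43, adjusted p = 0.008773 and 0.01092 by limma). It was lower in blood for Slc3a2, by -0.45 (adjusted p = 0.01059), but with the spike-in shift this became 0.03. Control and OVX arrays shared no slide in either tissue, and slide was not used as a block in any test of a difference between tissues. These OVX differences therefore cannot be told apart from differences between slides. Within blood alone, limma called no probe for OVX with slide as a block. OVX+CUMS minus control differed between tissues on 0 of 6 member probes by limma, with none at an unadjusted p under 0.05, beside 13.8% of all probes (6.15% higher, 7.61% lower). For Slc36a1 the same difference between tissues is a description only, -0.03 (standard error 0.14) on the downstream and 0.39 (0.24) on the upstream probe.

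**Figure D4:**
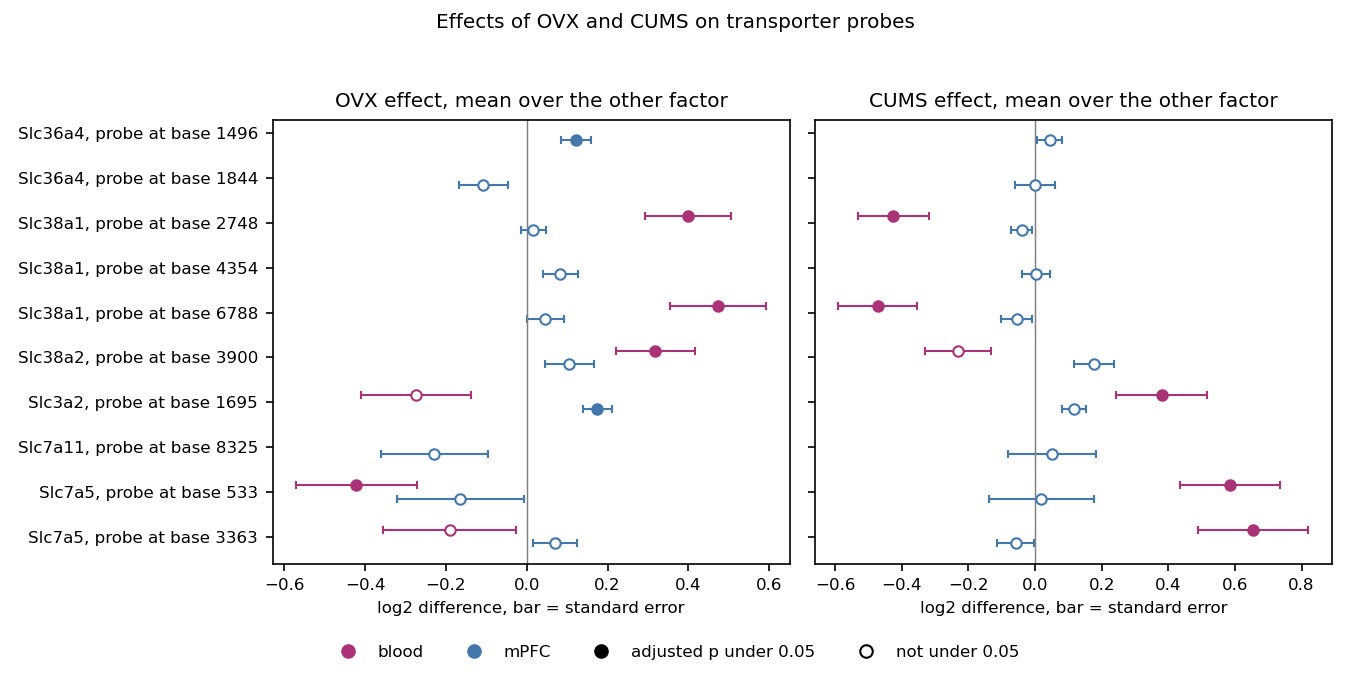
OVX effect (left) and CUMS effect (right) on each detected probe of the 6 genes other than Slc36a1 in blood and mPFC, as log2 differences with bars for the standard error (6 mice per group). Filled points have a limma adjusted p under 0.05. In blood, both Slc38a1 probes lie above 0 for OVX and below 0 for CUMS, and their mPFC effects lie closer to 0.

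Other amino acid transporters were read from a list of 46 genes with 62 probes. In blood, 23 of these probes were tested, of which 5 were higher and 8 lower with OVX (median -0.22, against 0.04 over all probes) and 6 higher and 5 lower with CUMS (median 0.15, against -0.03). These shares of 56.5% and 47.8% were near the 55.1% and 48.5% of all blood probes called. For OVX+CUMS minus control in blood limma called 0 of 23, and 3 had an unadjusted p under 0.05. In mPFC, 37 probes were tested, and 7 were higher and 3 lower in OVX+CUMS than in control mice (median 0.07, against 0.06 over all probes), 27% of them against 33.4% of all probes. The risers included 2 of 3 probes of Slc38a9, a lysosomal arginine sensor (0.59 and 0.23, adjusted p = 0.02372 and 0.01045 by limma), and Slc7a8 (LAT2, another light chain of Slc3a2, 0.19, adjusted p = 0.03868). They also included the glutamate transporters Slc1a2, on 1 of its 3 probes, and Slc1a6 (0.28 and 0.18, adjusted p = 0.03053 and 0.03669 by limma). The brain proline transporter Slc6a7 rose too (0.25, adjusted p = 0.02614). Those that fell were Slc1a4, a neutral amino acid exchanger (-0.44, adjusted p = 9.637e-05), Slc43a2 (LAT4, -0.38, adjusted p = 0.003719) and Slc38a10 (-0.23, adjusted p = 0.04102). None of the 3 probes of the other SLC36 genes, Slc36a2 and Slc36a3, was detected in either tissue.

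Genes of lysosomal amino acid sensing and mTORC1 were read from 37 genes with 56 probes. Of 37 probes tested in blood, 16 were higher and 5 lower with OVX (median 0.21, against 0.04 over all probes), and 2 were higher and 21 lower with CUMS (median -0.29, against -0.03). The shares called were 56.8% for OVX, near the 55.1% of all blood probes, and 62.2% for CUMS, against 48.5%. In mPFC, 14 of 52 probes were higher and 4 lower in OVX+CUMS than in control mice (median 0.09, against 0.06), 34.6% of them against 33.4% of all probes. Both probes of Rheb, the GTPase that activates mTORC1, had the largest falls (-0.51 and -0.39, adjusted p = 4.235e-05 and 0.0002532 by limma), and Deptor, an mTOR inhibitor, and Nprl3, a part of the GATOR1 brake on mTORC1, had the largest rises (0.36 and 0.35, adjusted p = 0.01364 and 0.002226).

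Genes of the ATF4 amino acid response (25 genes, 34 probes), which include targets switched on when amino acids run short, gave 9 higher and 2 lower with OVX and 0 higher and 7 lower with CUMS among 23 blood probes (medians 0.19 and -0.18). The shares called, 47.8% and 30.4%, were below the 55.1% and 48.5% of all blood probes. In mPFC, 5 of 32 were higher and 3 lower in OVX+CUMS than in control mice (median 0.07, against 0.06 over all probes), 25% of them against 33.4% of all probes. The largest rises were those of Nupr1 (0.46, adjusted p = 0.03507) and Shmt2 (0.30, adjusted p = 9.49e-05), and the largest falls those of Trib3 (-0.39, adjusted p = 0.03448) and Psph (-0.23, adjusted p = 0.006509), by limma. The mPFC calls in these lists rest on the comparison in which group and slide coincide.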

How the data were processed

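RNA of blood and mPFC was measured on 48 arrays, and a blood and an mPFC array that share group and number were treated as the same mouse. Per the file headers, the authors made the signal intensity of each spot with Feature Extraction 10.7.3.1, with the background subtracted. The deposited normalized values are log2, made by the authors from the 75th percentile of each array, and 100% of single-spot values differed by less than 0.001 from those computed here, up to a constant per array. Here, spots flagged as outliers were left out, spots were averaged per probe in log2, and the array's 75th percentile, taken without control probes, was subtracted. limma 3.58.1 in R 4.3.3 was fitted on all detected probes (20767 in blood, 28357 in mPFC, 17544 in both) with OVX, CUMS and their interaction, or with group means. Blood and mPFC were compared on within-mouse differences. P-values were adjusted by Benjamini-Hochberg, with a threshold of 0.05. Exact permutation tests were two-sided. Scripts were tested on simulated data. The p-values set a difference against the spread between mice of a group, which includes slide differences where a group was spread over slides. Without slide as a block, they do not separate group from slide. The number of arrays limits the precision.

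Members, gene lists and tests were chosen with earlier results of these data known. Genes were named by rule: all member probes, for each Slc36a1 probe the 3 probes of other genes with the highest Pearson's r (1 of them, and the position and sequence of 1 probe, are not reported here), and from each list at most 2 called rises and 2 falls for OVX+CUMS minus control. Probe coordinates are those of the array (mm9). Between groups, mice with the same number were not paired.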

Additional observations from a re-analysis of the deposited data

Results flagged for a closer look

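Of 80 sets of 6 arrays (20 detected probes and tissues in 4 groups), 3 (3.75%) held 1 array far from the other 5 by Dixon's test, which chance gives in about 1 of 20 sets. They were the upstream Slc36a1 probe in blood of CUMS replicate 6 (-0.44), Slc38a2 in blood of CUMS replicate 2 (0.99) and Slc7a11 in mPFC of OVX+CUMS replicate 6 (-0.68). Without CUMS replicate 2, the interaction for Slc38a2 in blood was called by limma (-0.51, adjusted p = 0.01558).

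The effect of CUMS differed between sham and OVX mice for Slc3a2 in mPFC (interaction -0.31, adjusted p = 0.03376 by limma). This call was lost without any of 13 of the 24 arrays. It was also lost with slide as a block, with the spike-in shift and without the detection filter. The OVX effect differed between blood and mPFC for the Slc38a1 probes at bases 2748 and 6788 (0.38 and 0.43) and for Slc3a2 (-0.45), the last reversed with the spike-in shift. The CUMS effect differed between the tissues for the same Slc38a1 probes (-0.39 and -0.42), for Slc38a2 (-0.41) and for Slc7a5 on the downstream (0.71) and upstream (0.57) probes. Slide was not a block in these tests between tissues.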

How the results depend on the processing

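Slide was the choice that moved most results. With slide as a block, the calls among member probes fell from 4 to 0 for OVX in blood, and in mPFC from 2 to 0 for OVX, from 3 to 0 for OVX+CUMS minus control and from 1 to 0 for the interaction, while 4 of 6 were called for CUMS in blood, 3 of them among the 5 called without it. Slc38a2 reversed for OVX in blood (-0.0327), and Slc36a4 for OVX and for OVX+CUMS minus control in mPFC (-0.0799 and -0.1374). OVX+CUMS minus control for Slc36a1 became 0.3698 and 0.0097 in blood and 0.026 and 0.2479 in mPFC (downstream, upstream). Within slide 1, CUMS minus control was 0.4018 downstream in blood, and 0.0872 downstream and -0.0127 upstream in mPFC, and within slide 3, OVX+CUMS minus OVX was 0.2631 in blood and -0.0597 in mPFC upstream. With normexp, 4 mPFC probes were called for OVX, and upstream Slc36a1 in blood differed by 0.6227. With the spike-in shift, downstream Slc36a1 in mPFC differed by -0.5783, 1 probe was called for OVX+CUMS minus control between the tissues and 0 for the mPFC interaction. In mPFC it called 2 probes for OVX and 4 for OVX+CUMS minus control, with 0 of the main calls among them. Slc36a4 reversed in mPFC (-0.0121 for OVX, -0.0929 for OVX+CUMS minus control), as did upstream Slc36a1 between the tissues (-0.197) and the tissue difference of the OVX effect on Slc3a2 (0.0341). Without the detection filter, 0 probes were called for the mPFC interaction. The cause was not tested, and slide was not used as a block between tissues.

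Leaving out 1 array at a time gave 0 to 2 calls for CUMS in mPFC (2 without CUMS replicate 1, 1 each without CUMS replicate 2 and OVX+CUMS replicate 3), 0 to 1 for the interaction in blood (1 without CUMS replicate 2) and 0 to 1 for the interaction in mPFC. The last was lost without control replicates 1, 5 or 6, CUMS replicates 3, 4, 5 or 6, OVX replicates 1, 2, 3 or 4, or OVX+CUMS replicates 1 or 3. Slc38a2 was called for CUMS in blood without CUMS replicates 1, 4 or 6, OVX replicate 1 or OVX+CUMS replicate 5, the array with high neutrophil markers, without which Slc3a2 was also called for OVX (-0.36, adjusted p = 0.01663 by limma). Slc7a11 was called for OVX in mPFC without CUMS replicate 2, and Slc3a2 for the tissue difference of CUMS without control replicate 2. With the replicate number as a block (replicate block), all 15 member calls within a tissue were retained, with 4 and 5 calls for OVX and CUMS in blood, and same-numbered mice had a median correlation of deviations of -0.09 in blood and 0.04 in mPFC. Without the mouse as a block (no replicate block), 8 of 8 probes still differed between tissues. All 31 member calls were retained with each probe's own spread, quantile scaling and the authors' values.

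Over all probes, the slide block gave 0 calls for every comparison within a tissue other than CUMS in blood. Calls for the interaction in blood went from 294 to 12 with own spread, 1073 with normexp, 491 with quantile scaling and 0 with the replicate block, the spike-in shift or no filter, and in mPFC from 1274 to 716 with own spread, 618 with the replicate block, 0 with the spike-in shift and 1 with no filter. Calls for CUMS in mPFC went from 1189 to 4931 with the spike-in shift and 25 with no filter, those for OVX in blood from 11447 to 18309 with no filter, and those for OVX+CUMS minus control in blood from 1301 to 852 with the spike-in shift. Between tissues, calls went from 8844 to 4908 for CUMS and from 6535 to 11284 for OVX with the spike-in shift, and without the filter to 10599 for OVX and from 16898 to 53267 for blood minus mPFC.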
